A study of Mus musculus with 24 samples.

Results

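A pair of H3K27ac peak lists from Sox9-deficient mouse limb buds was compared, 1 deposited under a Sox9null E11.5 name and 1 deposited under a Sox9cKO E12.5 name. They belong to 2 of the 24 samples of the series and to 2 of the 4 samples whose peak lists were used, and they hold 36937 and 28419 of the 134222 peaks in those 4 lists. Members were chosen by the deposited names, and the sample titles are exchanged: the sample that carries the Sox9null-named list is titled as Sox9cKO at E12.5, and the sample that carries the Sox9cKO-named list is titled as Sox9null at E11.5. Each list is therefore called by its deposited name. If the titles are the correct ones, every direction given here for the Sox9-deficient pair turns round, and so does its order in time.

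The series mapped histone marks by chromatin immunoprecipitation and sequencing in control and Sox9-deficient mouse limb buds at embryonic days E11.5 and E12.5, to ask how chromatin is remodelled as cartilage formation starts and what of this needs SOX9. The groups used were Sox9null (E11.5 by list name), Sox9cKO (E12.5 by list name), and controls at E11.5 and at E12.5, all precipitated with an antibody to H3K27ac (ab4729, Abcam). A null allele gives no working product and a conditional knockout (cKO) removes a gene only where a recombinase acts, but the labels name no recombinase, allele, strain, number of embryos or limb (fore or hind). Each group had 1 library, so no difference was tested, every value describes these libraries, and the stage, the kind of deficiency and the library cannot be told apart within the Sox9-deficient pair.

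H3K27ac, the acetylation of lysine 27 of histone H3, marks promoters and enhancers in use, and stretches of it over a gene and its surroundings accompany transcription. In the early limb bud, signals from the ridge and the posterior margin keep the mesenchyme growing under genes such as Sall3, Alx4 and the Hox clusters. Cells of the core then gather into condensations, and SOX9, with its partners SOX5 and SOX6, drives the collagens and proteoglycans of cartilage, while neighbouring mesenchyme takes on tendon and other connective tissue fates.

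Some gene starts had a peak in only 1 of the Sox9-deficient lists. For 5 of them the 250 bases before the start are given, read 5′ to 3′ on the gene's strand (plus for all 5) from RefSeq, build GRCm38.p6, with capitals marking AACAAT, the core that SOX proteins bind, or TATAAA, the TATA box core, on either strand. The first 3 starts had a peak within 1000 bp in the Sox9cKO-named list and none in the Sox9null-named list, and the last 2 the reverse. Ogn (chr13:49607765-49608014) and Aspn (chr13:49544193-49544442) encode small leucine-rich proteoglycans of connective tissue, Col9a2 (chr4:121039316-121039565) a chain of cartilage collagen IX, Matn3 (chr12:8947679-8947928) the cartilage protein matrilin 3, and Wnt3 (chr11:103773925-103774174) an ectodermal WNT ligand of the limb ridge.
Ogn: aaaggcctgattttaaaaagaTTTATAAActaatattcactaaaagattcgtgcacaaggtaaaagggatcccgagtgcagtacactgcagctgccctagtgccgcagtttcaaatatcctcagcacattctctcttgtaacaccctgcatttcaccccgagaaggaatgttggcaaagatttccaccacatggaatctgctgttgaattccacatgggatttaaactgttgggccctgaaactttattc
Aspn: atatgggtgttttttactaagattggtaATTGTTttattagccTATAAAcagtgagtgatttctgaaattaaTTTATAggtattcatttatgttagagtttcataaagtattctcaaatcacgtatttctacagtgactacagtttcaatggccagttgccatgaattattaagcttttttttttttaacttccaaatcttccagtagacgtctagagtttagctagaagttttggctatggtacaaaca
Col9a2: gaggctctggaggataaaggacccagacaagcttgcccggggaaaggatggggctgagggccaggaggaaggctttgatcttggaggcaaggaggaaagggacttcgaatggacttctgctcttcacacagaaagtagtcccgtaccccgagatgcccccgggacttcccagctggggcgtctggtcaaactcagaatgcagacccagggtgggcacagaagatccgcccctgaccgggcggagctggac
Matn3: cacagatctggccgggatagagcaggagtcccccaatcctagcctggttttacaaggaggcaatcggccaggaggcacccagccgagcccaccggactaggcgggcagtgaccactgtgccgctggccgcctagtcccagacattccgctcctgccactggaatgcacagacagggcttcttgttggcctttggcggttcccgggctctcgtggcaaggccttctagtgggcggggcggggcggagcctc
Wnt3: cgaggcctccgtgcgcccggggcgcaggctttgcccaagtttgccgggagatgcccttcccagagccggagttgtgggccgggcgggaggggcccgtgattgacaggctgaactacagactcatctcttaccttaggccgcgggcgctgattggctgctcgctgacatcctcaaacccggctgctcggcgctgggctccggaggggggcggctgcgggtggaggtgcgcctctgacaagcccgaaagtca
Aspn held 1 AACAAT and 2 TATAAA matches, Ogn 2 overlapping TATAAA matches, and the other 3 neither motif. Of 32851 gene starts in the RefSeq table, 9.42% hold AACAAT and 12.4% hold TATAAA in the same window, so these matches describe the shown sequences only. The genes were picked after their peaks had been seen.

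Scores of the peaks at those starts lay on both sides of their list's median, the score being the authors' own value for each peak and used here only within a list. The Ogn peak of the Sox9cKO-named list scored 143.12 and the Aspn peak 195.62, where the median of that list was 226. The Col9a2 peak scored 649.76. In the Sox9null-named list the nearest peak lay 23582 bp from the Ogn start, 1631 bp from the Aspn start and 1020 bp from the Col9a2 start, so the last 2 starts had acetylation close by. Conversely, the Matn3 start carried a peak of score 248.51 in the Sox9null-named list, with the nearest Sox9cKO-named peak 5588 bp away. The Wnt3 start carried a peak of score 134.68 in the Sox9null-named list, and the nearest peak of the other list was 66062 bp away. Ogn, Aspn and Wnt3 followed the controls: the first 2 starts had a peak at E12.5 and none at E11.5, and Wnt3 the reverse. Col9a2 and Matn3 had a peak at the start in both controls.

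The Sox9null-named list held more and narrower peaks. Its 36937 peaks had a median width of 1332 bp and covered 60.4 Mb, and the 28419 peaks of the Sox9cKO-named list had a median width of 1778 bp and covered 59.7 Mb. Controls held 36045 peaks of median width 1141 bp at E11.5 and 32821 of 1707 bp at E12.5, so in both pairs the list named for the later stage had fewer, wider peaks. Read depth is unknown, and the part of depth and width in the results was not tested, so counts are given below also for equal numbers of the highest-scored peaks, 28419 from each list. At Sox9 itself (chr11:112782210-112787757, a gene of 5548 bp) peaks covered 54.3% of the gene in the Sox9null-named list and 55.8% in the Sox9cKO-named list, against 96.6% and 81.3% in E11.5 and E12.5 controls. In both Sox9-deficient lists the uncovered stretch lay inside the gene, 2533 bp and 2453 bp long. Of limb markers, Prrx1, a mesenchymal homeobox gene, was covered over 11.3 and 11.8 kb in the Sox9null-named and the Sox9cKO-named list, and Pitx1, a hindlimb determinant, over 17.5 and 17.9 kb, but Tbx5, the forelimb determinant, over 32.6 kb and 0 kb.

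Most strong peaks were common to the Sox9-deficient lists. At least 1 bp of 66.7% of the Sox9null-named peaks (Wilson 95% interval 66.2 to 67.2) was overlapped by a Sox9cKO-named peak, and 82.6% of the Sox9cKO-named peaks (82.1 to 83.0) by a Sox9null-named peak. These intervals, like all others given, cover counting error only. In the highest 20% by score the shares were 99.5% and 99.98%, and in the lowest 20% 25.2% and 50.7%. The Sox9null-named list overlapped the E11.5 control slightly more (73.0% of its peaks) than the E12.5 control (70.4%). For the Sox9cKO-named list the order was the other way, with 78.7% of its peaks found in E11.5 and 87.8% in E12.5 control peaks.

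To compare genes, the kb covered by peaks were summed over a window of the gene body with 20 kb added at either end, and a gene was called higher or lower when the lists differed by at least 2-fold and at least 1 kb. Of 16260 protein-coding genes with a peak in either Sox9-deficient list, 301 (1.85%) were called higher in the Sox9cKO-named list and 1372 (8.44%) lower. The median difference over these genes, Sox9cKO-named minus Sox9null-named, was -0.339 kb. With equal numbers of top peaks 535 genes were called higher and 1004 lower, so that the share of calls that were higher went from 18.0% to 34.8%. Most losses were small: genes called lower had a median of 2.73 kb in the Sox9null-named list, and 678 of them had no peak in the Sox9cKO-named list. Gains and losses of at least 10 kb were almost equal in number, 26 and 23.

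**Figure D1:**
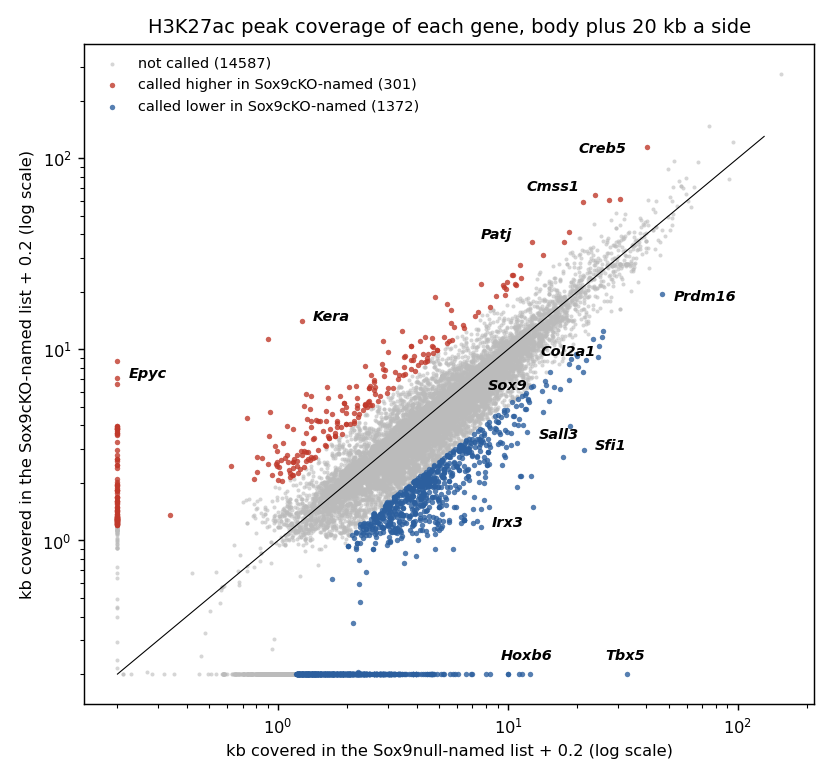
Kb of H3K27ac peaks over each protein-coding gene (body with 20 kb at either end) in the Sox9null-named list (horizontal) and the Sox9cKO-named list (vertical), both plus 0.2 on log axes, with 1 point per gene and the line of equality. The 301 genes called higher lie above the line, with Creb5 the farthest up at 114 kb, and the 1372 called lower lie below it, with Tbx5 at 0 kb on the vertical axis.

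The largest gain in coverage was at Creb5, which encodes a transcription factor of the CREB family. Peaks covered 39.97 kb of its window in the Sox9null-named list and 114 kb in the Sox9cKO-named list, and 25.5 and 119 kb in E11.5 and E12.5 controls. Cmss1 and Filip1l share an intronic stretch, so their windows overlap: Cmss1 went from 23.6 to 64.2 kb and Filip1l from 20.9 to 58.9 kb between the same lists. Hdac9, a histone deacetylase gene whose introns are known to hold enhancers of the neighbouring limb gene Twist1, had 30.6 kb in the Sox9null-named list and 61.3 kb in the Sox9cKO-named list. Lrmda had 27.4 and 60.4 kb, and Patj, for a junction scaffold protein, 12.47 and 36.1 kb. In the controls Hdac9 went from 27.6 to 71.3 kb, Lrmda from 24.3 to 62.4 kb and Patj from 6.31 to 35.9 kb. All of these genes were therefore higher in the later-named list of each pair. The other genes among the 12 largest gains were Gas2, Slc7a11 (the cystine transporter), Adamtsl1 and Hmcn1 (both for matrix proteins), Pmfbp1 and Aebp2 (a cofactor of Polycomb complex 2). Aebp2 had the least coverage of these, 4.59 kb against 18.7 kb. Of the 26 genes called higher by at least 10 kb, 25 were also called higher in the E12.5 control against the E11.5 control, where 5.03% of all genes were. These calls depended on peak width: with each peak counted as the 1000 bp around its centre, an alternative added after the data were seen, 10 of the 12 largest gains were no longer called, and Creb5 stood at 31.0 and 46.0 kb. Only Pmfbp1 and Aebp2 kept the call. With the upper 50% of peaks by score 9 of the 12 kept it, all but Lrmda, Adamtsl1 and Pmfbp1.

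The largest loss was at Tbx5, covered over 32.6 kb in the Sox9null-named list and 0 kb in the Sox9cKO-named list, and over 31.7 kb and 3.76 kb in E11.5 and E12.5 controls. Prdm16, for a zinc finger regulator of transcription, was covered over 46.8 and 19.4 kb, and over 39.96 and 30.7 kb in the controls. Its call ended with equal numbers of top peaks, where the difference was -18.3 kb. Sfi1, for a centrosomal protein, went from 21.3 to 2.79 kb, and Igdcc3, for an immunoglobulin-family surface protein, from 24.4 to 8.96 kb. The region of Sfi1 is known as duplicated sequence in this assembly, where reads can map to several places. Tbc1d22a (18.3 and 3.76 kb), Vav2 (20.9 and 7.37 kb), Gm50595, 3110082I17Rik and Glis1 were also among the 12. Glis1, a Krüppel-like zinc finger gene, had 25.8 and 12.2 kb in the Sox9-deficient lists, but 20.7 and 27.1 kb in E11.5 and E12.5 controls, and its call too ended with equal numbers of top peaks. Of the 23 genes called lower by at least 10 kb, 9 were called lower in the control pair as well, where 4.04% of all genes were.

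Hox genes from the 3′ side of the HoxB and HoxC clusters, which are used in anterior and proximal parts of the body and limb, made up the rest of the 12 largest losses. Hoxb3 was covered over 17.2 and 2.54 kb in the Sox9null-named and the Sox9cKO-named list, and Hoxb6 over 12.2 and 0 kb. Hoxb4, Hoxb5, Hoxb7 and Hoxb8, looked up after those 2 had been seen, were at 7.82, 11.3, 9.79 and 9.79 kb in the Sox9null-named list and at 0 kb in the Sox9cKO-named list. All 5 genes from Hoxb4 to Hoxb8 were also covered in control limb buds at E11.5 and stood at 0 kb in those at E12.5. Windows of neighbouring Hox genes overlap, so these are not separate observations.

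Along HoxC the difference was graded. In order from Hoxc4 to Hoxc13, Hoxc4 went from 14.0 to 4.52 kb and Hoxc5 from 14.9 to 5.16 kb between the Sox9null-named and the Sox9cKO-named list. Hoxc6 went from 21.7 to 8.58 kb, Hoxc8 from 27.7 to 15.8 kb and Hoxc9 from 33.8 to 27.1 kb. Hoxc10 (37.5 and 33.3 kb) and Hoxc11 (34.2 and 34.6 kb) were nearly level, and Hoxc12 (16.2 and 18.0 kb) and Hoxc13 (6.36 and 8.17 kb) were slightly higher in the Sox9cKO-named list. Only the first 3 of these 9 genes were called. The controls were graded too. From E11.5 to E12.5 Hoxc4 went from 12.4 to 4.26 kb, Hoxc6 from 16.8 to 9.30 kb and Hoxc8 from 21.8 to 15.7 kb. Hoxc9 (29.5 and 29.2 kb) was level and Hoxc13 (6.97 and 8.21 kb) slightly higher at E12.5. The HoxD genes, which pattern the digits from their 5′ end, ran the same way without any call. Between the Sox9-deficient lists Hoxd8 had 27.7 and 18.5 kb, Hoxd11 46.6 and 41.8 kb and Hoxd12 42.6 and 42.0 kb. Hoxd13 had 37.6 and 43.4 kb and Evx2, beside Hoxd13, 27.5 and 33.9 kb. In E11.5 and E12.5 controls Hoxd8 had 26.96 and 20.7 kb, Hoxd11 44.2 and 43.8 kb and Hoxd12 41.1 and 42.7 kb. Hoxd13 had 36.95 and 43.4 kb there and Evx2 26.9 and 33.4 kb. The 43.4 kb at Hoxd13 was its whole window, and Hoxd12 was close to that limit in both Sox9-deficient lists. Hoxa11 had its whole window, 43.7 kb, covered in all 4 lists, so no difference could show there. Hoxa13 was covered over 36.5 and 37.3 kb in the Sox9-deficient lists.

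Of 13 genes that set forelimb or hindlimb identity, all with a peak, 4 (30.8%, beside 8.44% of all genes) were called lower and none higher, and the median difference was -4.13 kb. They were Tbx5, Hoxc4, Hoxc5 and Hoxc6, and the HoxC windows overlap, so those 3 calls are not separate. The hindlimb genes Tbx4 and Pitx1 were not called: Tbx4 was covered over 31.9 and 38.1 kb and Pitx1 over 17.5 and 17.9 kb. Controls gave 29.7 and 34.4 kb at Tbx4 and 16.0 and 18.3 kb at Pitx1, and 3 of the 13 genes were called lower there (Tbx5, Hoxc4 and Hoxc5). The labels do not say which limbs were taken for a library, so the limbs sampled and the stage cannot be told apart. The proximal limb genes Meis1 and Meis2 were lower too, Meis2 from 18.6 to 8.72 kb (called) and Meis1 from 19.04 to 10.4 kb (not called). Over 21 Hox and proximodistal genes, 20 had a peak, Meis2 was the only call, and the median difference was -0.407 kb. Taking equal numbers of top peaks added Rarb and Aldh1a2, a receptor and an enzyme of retinoic acid signalling, as 2 calls in the higher direction.

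Genes of early limb outgrowth gave calls in the downward direction alone. Of 47 with a peak (48 listed), 34 (72.3%) were lower and 13 higher in covered kb, near the 67.1% of all genes that were lower, with a median of -1.18 kb beside -0.339 kb for all genes. None was called higher and 9 (19.1%) were called lower, beside 8.44% of all genes, and the same 9 were called with equal numbers of top peaks. Among them were Sall3, Alx4, Irx3, Irx5, Etv4, Tfap2c, En1 and Shh. Sall3, a zinc finger factor of the distal limb, went from 11.9 to 3.49 kb, and from 12.2 to 3.19 kb in the controls. Alx4, which opposes hedgehog signalling at the anterior margin, went from 12.2 to 5.07 kb, and from 12.2 to 7.001 kb in the controls. Irx3 and Irx5 act together in proximal and anterior limb progenitors: Irx3 went from 7.40 to 0.978 kb, a 7.56-fold difference, and Irx5 from 7.32 to 3.01 kb. In the controls Irx3 went from 4.11 to 2.91 kb and Irx5 from 6.26 to 8.89 kb, neither of them called. Etv4, a target of FGF signalling, went from 6.19 to 1.801 kb in the Sox9-deficient lists and from 4.99 to 3.45 kb in the controls. Tfap2c had 2.87 kb in the Sox9null-named list, 3.32 kb in the E11.5 control and 0 kb in both later-named lists. Shh, the signal of the posterior margin, had 2.47 kb in the Sox9null-named list and 0 kb in the other 3 lists. The Shh peaks scored at most 128.36, where the median of that list was 196. Only 2 of the 9, Sall3 and Tfap2c, were called lower in the control pair. Further counts were added after the data were seen. With the upper 50% of peaks by score, 13 of 45 outgrowth genes (28.9%) were called lower, beside 16.8% of all genes. The calls of En1 and Shh ended there. With each peak counted as 1000 bp, 13 of 47 (27.7%) were called lower, beside 24.5% of all genes. Many core limb genes were level, among them Hand2 (31.4 and 32.3 kb), Msx1 (12.46 and 13.2 kb), Twist1 (13.7 and 14.4 kb) and Fgf10 (9.70 and 10.3 kb).

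Tendon and connective tissue genes held the largest share of calls in the upward direction. Of 19 with a peak (20 listed), 4 (21.1%) were called higher, beside 1.85% of all genes, and 1 lower, and the median difference was 0.577 kb. The 4 were Kera, Lum, Aspn and Ogn, for the small leucine-rich proteoglycans keratocan, lumican, asporin and osteoglycin, which organise collagen fibrils. Kera was covered over 1.06 kb in the Sox9null-named list and 13.8 kb in the Sox9cKO-named list, a 12.9-fold difference, and over 0 and 14.8 kb in E11.5 and E12.5 controls. Its start carried a Sox9cKO-named peak of score 354.1, and the nearest Sox9null-named peak lay 15619 bp away. Lum went from 4.24 to 8.80 kb and Aspn from 4.16 to 8.42 kb, and Ogn from 0 to 1.74 kb. Epyc, for epiphycan, a cartilage proteoglycan of the same family next to Kera, went from 0 to 6.85 kb, and from 0 to 5.91 kb in the controls. Lum, Kera and Epyc lie beside each other on chromosome 10 and Aspn and Ogn on chromosome 13, with overlapping windows in the first group. All 4 tendon list calls and Epyc were also called higher in the control pair. Decorin, Dcn, from the same chromosome 10 group, went from 5.29 to 8.12 kb without a call. Tendon regulators were not called: Scx had 14.6 and 12.54 kb, and Mkx 4.22 and 6.71 kb. When equal numbers of top peaks were taken, 6 of 19 tendon genes were called higher, the 4 named and Tgfbi and Thbs4, and none lower. Over all genes 3.38% were called higher and 6.33% lower. Counts in other settings were added after the data were seen. With the upper 50% of peaks by score, 1 of 16, Kera, was called higher and 2 lower, beside 1.61% and 16.8% of all genes. The calls of Lum, Aspn and Ogn had ended. With each peak counted as 1000 bp, 2 of 19 were called higher, Kera and Ogn, and 3 lower. The shares over all genes were then 2.61% and 24.5%. Six2, a factor of limb connective tissue and tendon, was the call in the other direction, at 3.49 and 1.52 kb, and this call ended with equal numbers of top peaks.

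Cartilage matrix genes, by contrast, were spread around the value of all genes. Of 27 with a peak (29 listed), 11 were higher and 16 lower, with a median of -0.240 kb, which became 0.00250 kb with equal numbers of top peaks. Col2a1, the main cartilage collagen and a direct SOX9 target, was covered over 11.8 kb in each Sox9-deficient list and over 11.6 and 13.1 kb in the controls. Col9a1 went from 5.68 to 8.90 kb and Col9a2 from 2.06 to 3.64 kb, both below 2-fold. Col11a2 had 7.37 and 6.42 kb, and Col27a1 8.85 and 5.36 kb. Of the 27, 2 were called higher and 4 lower, beside 1.85% and 8.44% of all genes. The higher ones were Epyc and Cnmd (chondromodulin, 0 and 1.01 kb). Acan (aggrecan, 1.11 and 0 kb), Prelp (3.24 and 0.907 kb), Comp (2.14 and 0.892 kb) and Matn4 (matrilin 4, 1.68 and 0 kb) were called lower, and with equal numbers of top peaks the calls of Comp and Matn4 ended. In the control pair 7 of 28 cartilage matrix genes with a peak were called higher and 2 lower, beside 5.03% and 4.04% of all genes. Papss2, for the enzyme that makes the sulphate donor of proteoglycans, had 1.32 and 1.33 kb in the Sox9-deficient lists and 1.11 and 10.3 kb in the controls. Hapln1, for the link protein of aggrecan, had 2.76 and 3.04 kb against 2.13 and 5.78 kb in the controls. Wwp2, host gene of the cartilage microRNA miR-140, had 22.5 and 33.5 kb against 27.1 and 55.9 kb. Each of these 3 was called higher in the control pair and not in the Sox9-deficient pair, and the difference between the pairs was not tested.

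**Figure D2:**
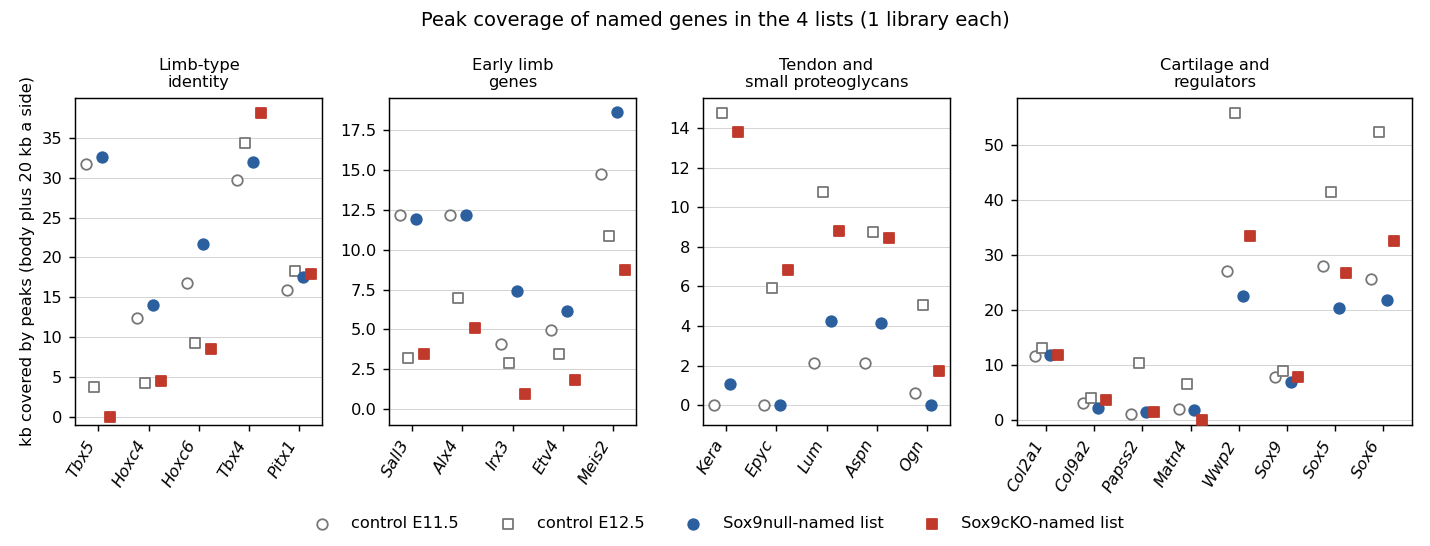
Kb covered by peaks (body with 20 kb at either end, linear axes that differ between panels) for named genes in the E11.5 control (open circles), E12.5 control (open squares), Sox9null-named (blue circles) and Sox9cKO-named (red squares) lists, 1 library each and so without error bars. Tbx5 stands at 0 kb in the Sox9cKO-named list, Kera stands at 13.8 kb there and at 14.8 kb in the E12.5 control, and Papss2 reaches 10.3 kb only in the E12.5 control.

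With all peaks, the chondrogenic regulators were more often higher than lower in the Sox9cKO-named list without reaching 2-fold. Of 25 with a peak (31 listed), 15 were higher and 10 (40%) lower, where 67.1% of all genes were lower. The median difference was 0.868 kb, and none was called higher, beside 1.85% of all genes. With the upper 50% of peaks by score 12 of 24 were lower, and 2 were called higher and 1 lower. With each peak counted as 1000 bp 13 of 25 were lower. Of these 25, 6 were called lower and none higher, beside 24.5% and 2.61% of all genes. Sox5 and Sox6, partners of SOX9 in cartilage, were covered over 20.3 and 26.8 kb, and over 21.8 and 32.6 kb, in the Sox9null-named and the Sox9cKO-named list. In the controls Sox5 had 28.0 and 41.5 kb and Sox6 25.6 and 52.4 kb, and only Sox6 was called. Sox9 with its flanks had 6.90 and 7.76 kb. Nfib, a nuclear factor I gene, had 18.7 and 32.3 kb, and 14.8 and 34.5 kb in the controls. Nkx3-2, a chondrogenic repressor, and Pthlh, for the growth plate hormone PTHrP, were at 0 kb in both Sox9-deficient lists and in E11.5 controls, and had 2.15 and 1.46 kb in the E12.5 control. The single call among these regulators with all peaks was Foxc1, a forkhead factor of skeletal mesenchyme, at 7.52 and 3.18 kb. Over all genes 8.44% were called lower. In the control pair 6 of 27 regulators with a peak were called higher and 1 lower, beside 5.03% and 4.04% of all genes.

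Signalling genes gave calls at a share near that of all genes, of which 10.3% were called in either direction. Of 32 BMP, TGF-beta and joint genes, 3 (9.38%) were called, 15 were higher and 17 lower in covered kb, and the median of -0.0570 kb turned to 0.514 kb with equal numbers of top peaks. Bmp5, a ligand that shapes skeletal elements, went from 3.70 to 9.01 kb, and Ltbp1, for a protein that stores TGF-beta in the matrix, from 11.2 to 23.5 kb. Gdf6, a joint ligand, went from 2.59 to 0 kb, and from 2.31 to 0 kb in the controls. Gdf5, the main marker of the future joint, had 10.6 and 12.1 kb. The antagonist Nog had 1.89 and 2.07 kb, while the controls had 2.004 and 5.98 kb. Of 29 WNT and FGF genes none was called higher and 2 lower, Fgf9 (6.23 and 1.60 kb) and Rspo2 (3.68 and 1.68 kb), both of which feed the growing limb. Of 22 condensation and adhesion genes 1 was called higher, Tnc (tenascin C, 1.07 and 2.59 kb), and 1 lower, Postn (periostin, 1.23 and 0 kb). None of 17 growth plate and osteoblast genes with a peak was called (2, Fgfr2 and Alpl, were higher with equal numbers of top peaks), and Col10a1 and Mmp13, markers of hypertrophic cartilage, were at 0 kb in all 4 lists.

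Markers of other cell types in the limb bud were called lower in the Sox9cKO-named list in several cases, and the counts below stand beside 8.44% called lower and 1.85% called higher over all genes. In bulk limb buds, fewer cells of a type and less acetylation per cell cannot be told apart. Of 20 surface ectoderm and apical ridge genes with a peak, 8 were called lower and none higher. These included Sp8 (5.57 and 0.701 kb) and Wnt3 (2.19 and 0 kb), which maintain the ridge, and the epithelial regulators Grhl2 (7.91 and 2.43 kb) and Trp63 (4.78 and 2.12 kb), as well as Epcam, Cldn6, Esrp1 and Wnt6. Fgf8, the main ridge signal, was level at 2.98 and 2.90 kb. The summed coverage of the ectoderm list was 103 kb in the Sox9null-named and 75.4 kb in the Sox9cKO-named list, and 78.5 and 93.8 kb in the controls, with 2 and 4 members at 0 kb in either pair. Among equal numbers of top peaks, 4 of 19 ectoderm genes with a peak were called lower and 1 higher. The shares over all genes there were 6.33% lower and 3.38% higher.

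With all peaks, calls among skeletal muscle genes had the same direction. Of 21 with a peak, 6 (28.6%, beside 8.44% of all genes) were called lower, all to 0 kb: Lbx1 (6.37 kb), Pax3 (3.80 kb) and Pax7 of migrating precursors, the determination genes Myf5 and Myf6, which share a window, and Cdh15. Lbx1, Pax3, Myf5 and Myf6 were at 0 kb in the E12.5 control too. In covered kb 15 of the 21 (71.4%) were lower and 6 higher, where 67.1% of all genes were lower. Muscle counts in other settings were added after the data were seen. With the upper 50% of peaks by score, 2 of 14 (14.3%) were called lower, beside 16.8% of all genes. The calls of Pax3, Myf5 and Myf6 ended there, and in covered kb 4 of the 14 (28.6%) were lower, beside 66.1% of all genes. With each peak counted as 1000 bp, 11 of 21 (52.4%) were called lower, beside 24.5% of all genes. The summed muscle coverage was 141 and 124 kb in the Sox9-deficient lists and 112 and 136 kb in the controls. Of 19 erythroid and macrophage genes 5 (26.3%) were called lower, with Tal1, the haematopoietic regulator, going from 5.54 to 0 kb, and 1 higher, Ptprc (2.42 and 6.15 kb). The summed coverage of that list was 99.1 and 81.7 kb, and 90.02 and 88.6 kb in the controls. Of 17 endothelial genes 3 (17.6%) were called lower and none higher, Tie1 going from 2.72 to 0 kb. The defining genes Kdr (0.692 and 0 kb) and Flt1 (0.775 and 0 kb) were not called, and had 1.48 and 0.738 kb, and 0.718 and 2.53 kb, in E11.5 and E12.5 controls. The summed endothelial coverage was 99.9 and 92.7 kb in the Sox9-deficient lists and ran the other way in the controls, 86.0 and 119 kb, where 4 members were called higher and 1 lower. Nerve and glia markers gave 1 call, Isl2, and a summed coverage of 37.7 and 30.4 kb. With equal numbers of top peaks 6.33% of all genes were called lower and 3.38% higher. The calls there were 3 lower and 2 higher of 21 muscle genes with a peak, the 2 higher being Myog and Myh3. The erythroid and macrophage list had 4 lower and 1 higher of 19, and endothelium 2 lower and 2 higher of 13. The part of these cell types in the other results was not tested. Housekeeping genes (24) and cell cycle genes (17) gave no call, with medians of -0.605 and -0.543 kb. Of 15 genes of unrelated tissues with a peak, 2 were called lower and none higher.

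**Figure D3:**
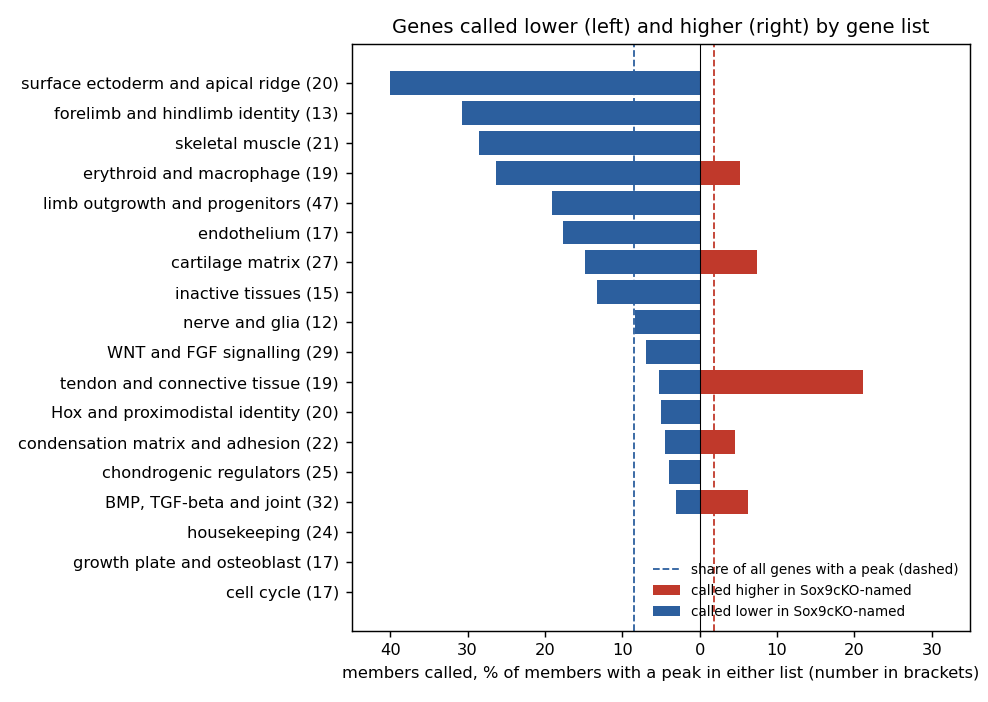
Share of the members of each gene list called lower (blue, to the left) and higher (red, to the right) in the Sox9cKO-named list, as % of the members with a peak in either list, whose number stands in brackets. Dashed lines give the same shares over all genes, 8.44% lower and 1.85% higher. Ectoderm genes, 8 of 20, reach the farthest left, and tendon genes the farthest right, at 21.1%.

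The control pair shares no library with the Sox9-deficient pair, so the stage differences of both can be set side by side. In the controls 819 genes were called higher (5.03%) and 659 lower (4.04%) at E12.5. Of the genes called higher in the Sox9cKO-named list, 175 were also called higher in the E12.5 control, 58.1% of the Sox9-deficient calls and 21.4% of the control calls. Of those called lower, 372 were shared, 27.1% of the Sox9-deficient calls and 56.4% of the control calls. Opposite calls were few, with 32 genes lower in the Sox9cKO-named list and higher in the E12.5 control, and 5 the other way. Across 15893 genes with a peak in each pair, the differences in kb had Pearson's r of 0.763 and Spearman's rho of 0.44, a description across genes, which are not independent replicates and share windows, gene length and libraries. Genes with the largest differences contribute most to the first of these.

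**Figure D4:**
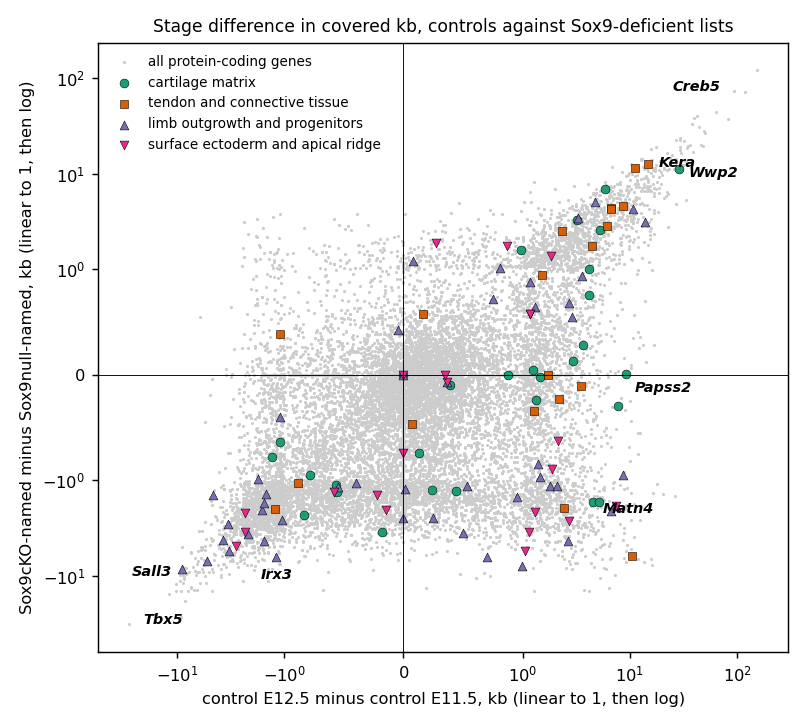
Difference in covered kb for each gene between the controls (E12.5 minus E11.5, horizontal) and between the Sox9-deficient lists (Sox9cKO-named minus Sox9null-named, vertical), on axes that are linear to 1 kb and logarithmic beyond, with members of 4 gene lists coloured. Creb5 and Kera lie far up and to the right, Tbx5 and Sall3 far down and to the left, and Papss2 far to the right at a vertical value near 0.

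Starts of genes rarely gained a peak. Of 17491 protein-coding genes with a known start, 9154 had a peak within 1000 bp in both Sox9-deficient lists, 63 (0.360%) in the Sox9cKO-named list alone and 1112 (6.36%) in the Sox9null-named list alone. In the controls 136 (0.778%) had one at E12.5 alone and 816 (4.67%) at E11.5 alone. With equal numbers of top peaks 102 starts were marked in the Sox9cKO-named list alone. The tendon list held 3 of the 63, Kera, Aspn and Ogn, and 2 of the 1112, Egr2 and Thbs4. The cartilage matrix list held 1, Col9a2, and 2 of the 1112, Matn3 and Ncan (neurocan).

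Away from genes the balance between the Sox9-deficient lists depended on how many peaks were taken. The lists were merged into 40232 regions, of which 22983 (57.1%) held peaks of both. Within 1 kb of a gene start or end 83.3% of regions were shared, 15.3% were in the Sox9null-named list alone and 1.40% in the Sox9cKO-named list alone. Of 20957 distal regions, those over 10 kb from every protein-coding gene start and end, 9273 were shared, 7605 (36.3%) were in the Sox9null-named list alone and 4079 (19.5%) in the Sox9cKO-named list alone. When equal numbers of top peaks were taken, the direction turned: 3423 distal regions (20.4%) were in the Sox9null-named list alone and 5344 (31.8%) in the Sox9cKO-named list alone. The control pair gave 6338 and 7339 distal regions in 1 list alone with all peaks, and 4864 and 7846 with equal numbers. Of the distal regions in the Sox9cKO-named list alone, 61.9% were in the E12.5 control, 23.0% in the E11.5 control and 32.1% in neither. Of those in the Sox9null-named list alone, 36.7% were in the E11.5 control, 24.8% in the E12.5 control and 51.5% in neither.

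Matched peaks far from genes ranked higher in the Sox9cKO-named list more often than not. Peaks near genes and far from them share 1 ranking in a list, so a rise of either class goes with a fall of the other, and the 2 shares below are not separate results. Within the 28419 top peaks of each list, 21489 (75.6%) were matched one to one, and their ranks had a Spearman's rho of 0.839 across peaks. Near genes, within 1 kb of a start or end, 30.9% of 10804 matched peaks ranked higher in the Sox9cKO-named list. Among 8145 distal matched peaks 67.0% did (Wilson 95% interval 66.0 to 68.0), with the median rank going from 16424 to 14299.5, where rank 1 is the highest score. The control pair gave 33.3% and 63.7% for E12.5 against E11.5. Matched distal peaks were also wider in the Sox9cKO-named list, with a median of 1935 bp against 1584 bp. In the control pair the medians were 1903 bp at E12.5 and 1220 bp at E11.5.

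**Figure D5:**
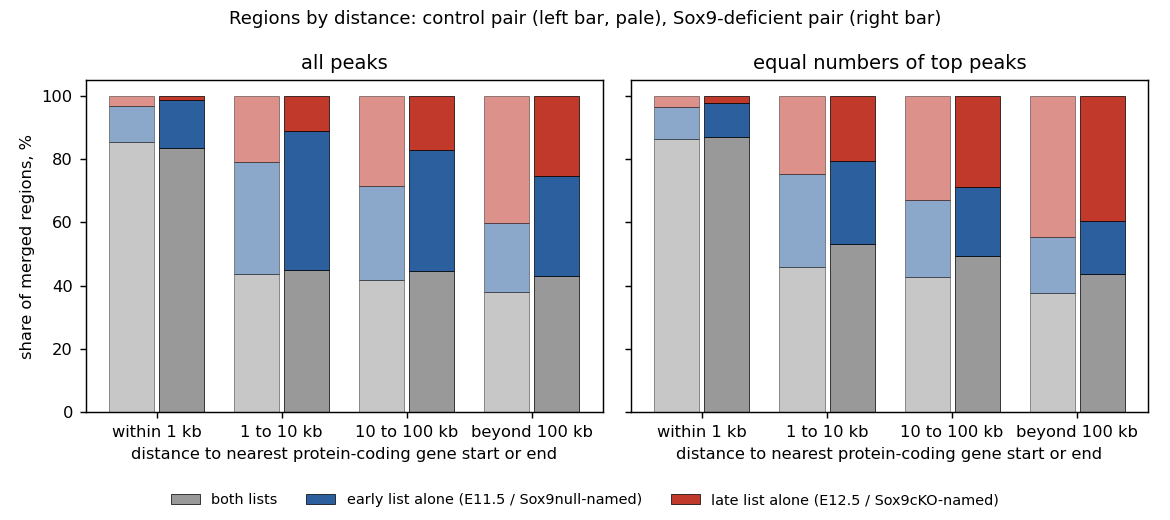
Share of merged regions found in both lists (grey), in the earlier-named list alone (blue) and in the later-named list alone (red), by distance to the nearest protein-coding gene start or end, for the control pair (pale, left bars) and the Sox9-deficient pair (right bars). With all peaks (left panel) 25.5% of Sox9-deficient regions beyond 100 kb were in the Sox9cKO-named list alone, and with equal numbers of top peaks (right panel) 39.5%.

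Rank changes of single matched peaks were taken among those ranked within the upper 2000 of either list, the 6 largest in each direction. In the Sox9null-named list the peaks at the Hoxb2, Etv4, Alx4, Hoxd8 and Sall3 starts or ends shared the rank 1545.5, at the score of 3100 where many peaks are tied, and their partners in the Sox9cKO-named list ranked 19566, 12362.5, 12230, 12204.5 and 12370. The Hoxb2 peak was 4610 bp wide in the Sox9null-named list and 1530 bp in the other, and the Alx4 peak 8061 and 1803 bp. The sixth was at Sfi1 and Gm51877. In the other direction an intronic peak of Usp29 (chr7:6775842-6786452 in the Sox9cKO-named list) went from rank 11356.5 to 402.5 and from 3012 to 10611 bp. A distal peak in the gene desert beside HoxD (chr2:74071028-74079917) went from rank 10609 to 1882. The remaining 4 lay in introns of Sh3pxd2a and Tshz1 and nearest to Mis18a and Rpusd4.

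The lists held unequal numbers of peaks at the highest scores. Those of 3100 or more numbered 2931 in the Sox9null-named list and 753 in the Sox9cKO-named list. Counts of those without a partner are therefore not directly comparable. In the Sox9null-named list 14 peaks of score 3100 or more had no Sox9cKO-named partner, all 14 overlapped a peak of the E11.5 control, and 13 overlapped none at E12.5. At Tbx5 lay 2 of them, 1 over the gene's beginning (chr5:119795205-119807229, 12025 bp wide) and 1 within the gene (chr5:119828360-119845729, 17370 bp wide). Several of the other 12 lay at the start of chromosome 9 near 3.0 Mb, at chr2:98661889-98663149 and chr2:98666086-98667535 and at other places known for satellite repeats in this assembly, where read pile-ups are common. In the Sox9cKO-named list no peak of that score was without a partner. Its highest one alone was an intronic peak of Cmss1 and Filip1l (chr16:57482920-57488473, score 1074.33), followed by 1 near Aebp2 (chr6:140703333-140706826, score 749.23). Both overlapped peaks of the E11.5 and the E12.5 control.

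Gene deserts that flank developmental genes held some of the widest differences. Of 2043 intervals of at least 100 kb between neighbouring protein-coding genes with a peak in either Sox9-deficient list, 204 (9.99%) were called higher in the Sox9cKO-named list and 247 (12.1%) lower by the rule used for genes. Among equal numbers of top peaks, 346 were called higher and 160 lower. In the controls 531 (26.0%) were called higher and 104 (5.08%) lower at E12.5. The summed coverage of the intervals was 12196 kb in the Sox9null-named and 14448 kb in the Sox9cKO-named list. Of the 204 higher intervals 152 were also called higher in the control pair, 74.5% of the Sox9-deficient calls and 28.6% of the control calls. Of the 247 lower intervals 57 were also called lower there, 23.1% of the Sox9-deficient calls and 54.8% of the control calls. Another 23 of the lower intervals were called higher in the control pair.

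The largest gain was between Atp5g3 and Lnpk (chr2:73912465-74514835), the desert on the digit side of the HoxD cluster, with 41.2 kb in the Sox9null-named and 102 kb in the Sox9cKO-named list, and 29.7 and 81.3 kb in the controls. On the other side of HoxD, between Mtx2 and Gm50595 (chr2:74876749-75451973), coverage went from 17.5 to 7.70 kb, while the controls had 12.6 and 16.5 kb. The HoxD flanks thus differed in opposite directions between the Sox9-deficient lists, and only the digit side was called in the controls. Wdr11-Fgfr2, beside a growth factor receptor gene, went from 14.2 to 54.8 kb, Nrsn1-Hdgfl1 from 12.6 to 66.6 kb, Spata18-Usp46 from 29.995 to 68.8 kb and Ackr3-Cops8 from 17.2 to 48.0 kb. All 5 gains were called in the controls as well. At Atp5g3-Lnpk the number of peaks was nearly level, 38 and 40, and the widest peak was 3789 and 10547 bp. Its controls held 31 and 30 peaks. The other 4 held more peaks in the Sox9cKO-named list: Wdr11-Fgfr2 15 and 27, Nrsn1-Hdgfl1 13 and 35, Spata18-Usp46 20 and 29 and Ackr3-Cops8 18 and 30. The part of peak width in these gains was not tested. Losses were smaller: Gm15319-Gm40469 went from 17.5 to 2.90 kb, Frg1-Triml1 from 20.9 to 7.48 kb, Tcp10c-Tcte2 from 18.4 to 7.05 kb and Tbx15-Spag17 from 13.6 to 1.94 kb. In the controls Gm15319-Gm40469 and Tbx15-Spag17 were called lower as well, and Frg1-Triml1 and Tcp10c-Tcte2 were not called. The widest Sox9null-named peak at Tcp10c-Tcte2 (chr17:13550223-13553710, 3488 bp) was 1 of the 14 unpartnered peaks of score 3100 or more. Several of those 14 lay at satellite repeats, and the part of read pile-ups in this loss was not tested. Both intervals beside Tbx5 were lower, Tbx3-Tbx5 going from 6.51 to 0.970 kb and Tbx5-Rbm19 from 7.95 to 0.650 kb. The controls had 3.67 and 2.03 kb at Tbx3-Tbx5 and 2.77 and 4.46 kb at Tbx5-Rbm19, neither of them called.

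Beside Sox9 the upstream desert, between Gm11677 and Sox9 (chr11:111726302-112782209), where distant enhancers of Sox9 are known to lie, was covered over 32.9 kb by 26 peaks in the Sox9null-named list and over 56.7 kb by 32 peaks in the Sox9cKO-named list. This 1.72-fold difference was not called, and the controls, with 19.5 and 61.5 kb, were. The downstream interval, Sox9-Slc39a11, had 31.5 and 26.9 kb in the Sox9-deficient lists and 23.4 and 27.4 kb in the controls. Beside Bmp2 the intervals had 8.85 and 8.38 kb (Fermt1-Bmp2) and 6.22 and 9.04 kb (Bmp2-Hao1) in the Sox9-deficient lists, without a call.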

How the data were processed

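Scores and positions of H3K27ac peaks were deposited by the authors as 1 list per sample, with no header, and each score is the value given to a peak by the authors' caller, without a stated definition. The peak names give MACS as the caller. Build mm10, CASAVA 1.8 and deepTools stand in the submitters' processing notes. For the caller's settings, the aligner, the use of an input and the depth in reads, values were not given in the sources used here. Scores served to rank or filter peaks inside 1 list at a time, and 1 library a side allowed no test.

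Computed here were overlaps of at least 1 bp, merged regions, ranks in equal numbers of top peaks, and kb covered over genes plus 20 kb or over gene-free intervals, with calls at 2-fold and 1 kb. Genes were 21883 protein-coding ones of RefSeq (GRCm38.p6), of which 17491 had a start in the sequence table. The others were left out of counts of starts. Controls were measured the same way. The members and 18 gene lists (423 symbols, all matched) were chosen with earlier results of these data known. Named were Sox9, the 12 largest gains and losses among called genes, up to 3 called gains, 3 called losses and 3 members with a start peak in 1 list from each gene list, any member of 6 limb and skeletal lists, the strongest peaks of 1 list, the largest rank changes and the extreme intervals with those beside Sox9, HoxD, Bmp2 and Tbx5. Other genes named, such as Hoxb4, were chosen after their values were seen. Alternatives were the upper 50% of peaks by score, equal numbers of top peaks, a 50% reciprocal overlap, other flanks, windows and distances, joined peaks, scaling to each list's total and autosomes alone. A count of each peak as the 1000 bp around its centre was added after the data were seen. The code was tested on a copy of the Sox9null-named list from which the peaks around randomly picked genes had been removed. No gains were planted. Analyses ran in Python (3.11.15) with pandas (2.3.3), numpy (2.4.6) and scipy (1.17.1), and plots in matplotlib (3.10.9). The series' other 20 samples were not analysed here. The values of 1 gene are not reported here.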

Additional observations from a re-analysis of the deposited data

Results flagged for a closer look

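Of the named genes, 2 were called in opposite directions in the pairs, a difference that was not tested. Matn4, for the cartilage protein matrilin 4, had 1.68 kb in the Sox9null-named list and 0 kb in the Sox9cKO-named list, a difference of -1.681 kb, and 1.90 and 6.46 kb in E11.5 and E12.5 controls. Six2, a factor of limb connective tissue, had 3.49 and 1.52 kb, a difference of -1.969 kb, and 2.45 and 4.90 kb in the controls. With equal numbers of top peaks neither gene was called in the Sox9-deficient pair.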

How the results depend on the processing

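No paired analysis was possible because each group had 1 list and the labels carry no replicate numbers. Without replicates, differences of the size seen between libraries of 1 group are unknown, and the unequal number and width of peaks moved many counts. With only the higher-scored 50% of peaks in each list, overlap was 72.2% of the Sox9null-named and 91.8% of the Sox9cKO-named peaks, 2453 genes were called lower, 27 starts had a peak in the Sox9cKO-named list alone and 1722 in the Sox9null-named list alone, and 961 and 2028 distal regions were in the Sox9cKO-named and the Sox9null-named list alone. With equal numbers of top peaks, overlap was 78.9% and 76.8%, 535 genes were called higher, 102 starts had a peak in the Sox9cKO-named list alone, 3423 distal regions were in the Sox9null-named list alone, and 346 intervals were called higher and 160 lower. An overlap of 50% of both peaks left 55.8% and 72.5% overlapped and 69.5% of top peaks matched. Beyond 50 kb, 2423 distal regions were in the Sox9cKO-named list alone and 3393 in the Sox9null-named list alone. With each peak counted as 1000 bp, added after the data were seen, 3977 genes were called lower. Signs turned for the median of the cartilage matrix list (0.00250 kb, equal numbers) and of the BMP list (0.514 kb, equal numbers, and 0.00660 kb when scaled to each list's total), for Gfi1b (0.0180 kb, upper 50%) and for Isl2 (0.777 kb, flanks of 100 kb). The cause was not tested. Of the 73 named genes that were called, 64 kept the call with equal numbers of top peaks, 47 with the upper 50%, 63 with flanks of 5 kb, 40 with flanks of 100 kb, 54 with 1000 bp peaks, and 73 with scaling or autosomes alone.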

Other observations

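Genes outside the limb and skeletal lists also gave opposite calls in the pairs. Smoc2, for a calcium-binding matrix protein, had 3.14 kb in the Sox9null-named and 0 kb in the Sox9cKO-named list, and 2.53 and 5.48 kb in E11.5 and E12.5 controls. Npr3, for the clearance receptor of natriuretic peptides, had 1.70 and 0 kb in the Sox9-deficient lists and 0 and 3.41 kb in the controls. Both are among the 32 genes called lower in the Sox9cKO-named list and higher in the E12.5 control, were picked after their values were seen, and the difference between the pairs was not tested. Parvg, Cfap61, Elfn1, Arhgap25 and Trim42 were the 5 genes called the other way, each under 3 kb in both Sox9-deficient lists.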
